A study of Mus musculus with 2 samples.

Results

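The genes described here encode the proteins of the cytosolic ribosome. They were taken by symbol, as Rps or Rpl with a number and no suffix other than a, x, l, al or l1, or as Rplp0, Rplp1, Rplp2 or Rpsa, with at least 1 protein_coding transcript. The rule found 84 genes among the 45578 genes listed. A further symbol, Rps12l1, matched the pattern but had no protein_coding transcript and was left out. The 84 genes were 76 core ribosomal protein genes, 46 of the large subunit and 30 of the small subunit, and 8 paralogues of core genes (Rpl3l, Rpl7l1, Rpl10l, Rpl22l1, Rpl36al, Rpl39l, Rps4l and Rps27l). Rps3a1, Fau and Gnb2l1 also encode proteins of the ribosome but fall outside the symbol pattern, and they are given beside the members where they bear on a result.

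A ribosome carries a single copy of nearly every ribosomal protein, and the exceptions are the acidic proteins P1 and P2, which sit as dimers on the lateral stalk of the large subunit. Cells therefore need these proteins in like molar amounts, and surplus ribosomal protein that is not built into a subunit is degraded. Most mRNAs of this family begin at the cap with a cytosine and a run of pyrimidines, the terminal oligopyrimidine (TOP) motif, through which mTOR signalling and the protein LARP1 control their translation.

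The study profiled ribosomes bound in polysomes in brain, and the samples held 1 group of 2 control mouse brains at postnatal day 5, biological replicates 1 and 2. Both brains carried the genotype Smn+/-; SMN2tg/0 on an FVB background, so these controls lack 1 of the mouse Smn alleles and carry the human SMN2 transgene. Fragments protected from RNase I in pooled polysomal fractions were sized to 25 to 35 nucleotides, sequenced and counted per transcript. A footprint below is 1 such count, and a gene's count is the sum over its annotated transcripts.

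The libraries held 1866831 footprints in replicate 1 and 5261878 in replicate 2. The limit that a count of 0 allows (3 counts) was 1.61 CPM (the count scaled to the library total) in replicate 1 and 0.570 CPM in replicate 2. Smn1 itself had 71 and 253 footprints. All 7 neuronal marker genes had footprints, with a summed level of 5486 and 4471 CPM. Markers of astrocytes (1401 and 1476 CPM), red cells (2126 and 1467 CPM) and microglia (169 and 194 CPM) were present as well, and of 3 liver markers, 2 were at 0 in both libraries. These are whole-tissue values, in which a change in the number of cells of a type and a change in RNA per cell cannot be told apart. No RNA-seq was used here, so footprints per codon combine the amount of each mRNA with how densely ribosomes cover it.

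Members took 23309 footprints in replicate 1 and 68172 in replicate 2. This was 1.25% of the first library (95% exact binomial interval 1.23 to 1.26%) and 1.30% of the second (1.29 to 1.31%), or 1.27% ± 0.0332 (SD, n = 2). Intervals and limits cover counting error only, since copies made by PCR are not independent molecules. Core genes alone took 1.22% and 1.26%.

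The annotated starts of some of these genes hold a TOP-like run, and windows from 10 bases before to 20 bases from the start are shown because 4 of these genes had among the highest output (Rpl38, Rps9, Rplp2 and Rpl41) and Rps23 and Rps12 had among the lowest, while Rps15a differed between the replicates. Sequences and positions are RefSeq's on GRCm38.p6, read 5′ to 3′ on the strand of the gene, and capitals mark the longest run that opens with a cytosine within 5 bases of the annotated start and goes on with at least 4 bases each of which is C or T.
Rpl38, chr11:114668570-114668599, plus strand: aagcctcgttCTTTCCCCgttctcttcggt
Rps9, chr7:3704031-3704060, plus strand: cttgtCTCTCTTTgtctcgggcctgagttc
Rplp2, chr7:141447641-141447670, plus strand: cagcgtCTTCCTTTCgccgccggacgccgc
Rps15a, chr7:118116128-118116157, minus strand: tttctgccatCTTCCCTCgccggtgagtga
Rps23, chr13:90923112-90923141, plus strand: cggctgggcggggCTTCCCgcaatgccttg
Rps12, chr10:23787190-23787219, minus strand: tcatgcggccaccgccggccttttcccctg
Rpl41, chr10:128549149-128549178, minus strand: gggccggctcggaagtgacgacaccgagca

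Rps12 and Rpl41 had no such run within 5 bases of the annotated start. The Rps12 window does hold a run of C and T that opens further downstream, outside that limit. The absence thus holds only for the stretch searched around the annotated start. Of the 63 members matched to the RefSeq promoter table, 56 were core genes, and 27 of these (48.2%) had the run at a listed start. The share was 21.2% of all 27025 genes in that table and 23.8% of the 9944 matched coding genes that averaged at least 10 footprints. With the cytosine exactly at the annotated start, as in Rpl38 and Rps15a, the shares were 23.2% of core genes (13 genes) and 3.01% of all genes. Genes with and without the run overlapped in output. Core genes with it had a median of 7.05 footprints per codon (range 1.67 to 20.6), and core genes without it had a median of 6.97 (range 1.23 to 15.1).

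Output per codon was the gene's summed footprints in both libraries divided by the codons of its longest annotated coding sequence. Over the 76 core genes the median was 6.76 footprints per codon, with quartiles of 4.33 and 9.09. In CPM per codon the median was 0.872 in replicate 1 and 0.968 in replicate 2. Of these genes, 63 (82.9%) lay within 2-fold of the median. The full range ran from 1.23 in Rps12 to 20.6 in Rpl38, a 16.8-fold span, and the SD of log2 output was 0.84. These values are as counted, with no allowance for fragments assigned to pseudogenes or to several transcripts of a gene, which are described after the comparisons.

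The family stood near the top of the brain's coding genes. All 76 core genes lay at or above the median of the 13317 coding genes that averaged at least 10 footprints, 75 were at or above the 75th percentile, and 67 at or above the 90th. The median of those coding genes was 0.515 footprints per codon, their log2 SD was 2.00, and 37.4% of them lay within 2-fold of their median.

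**Figure D1:**
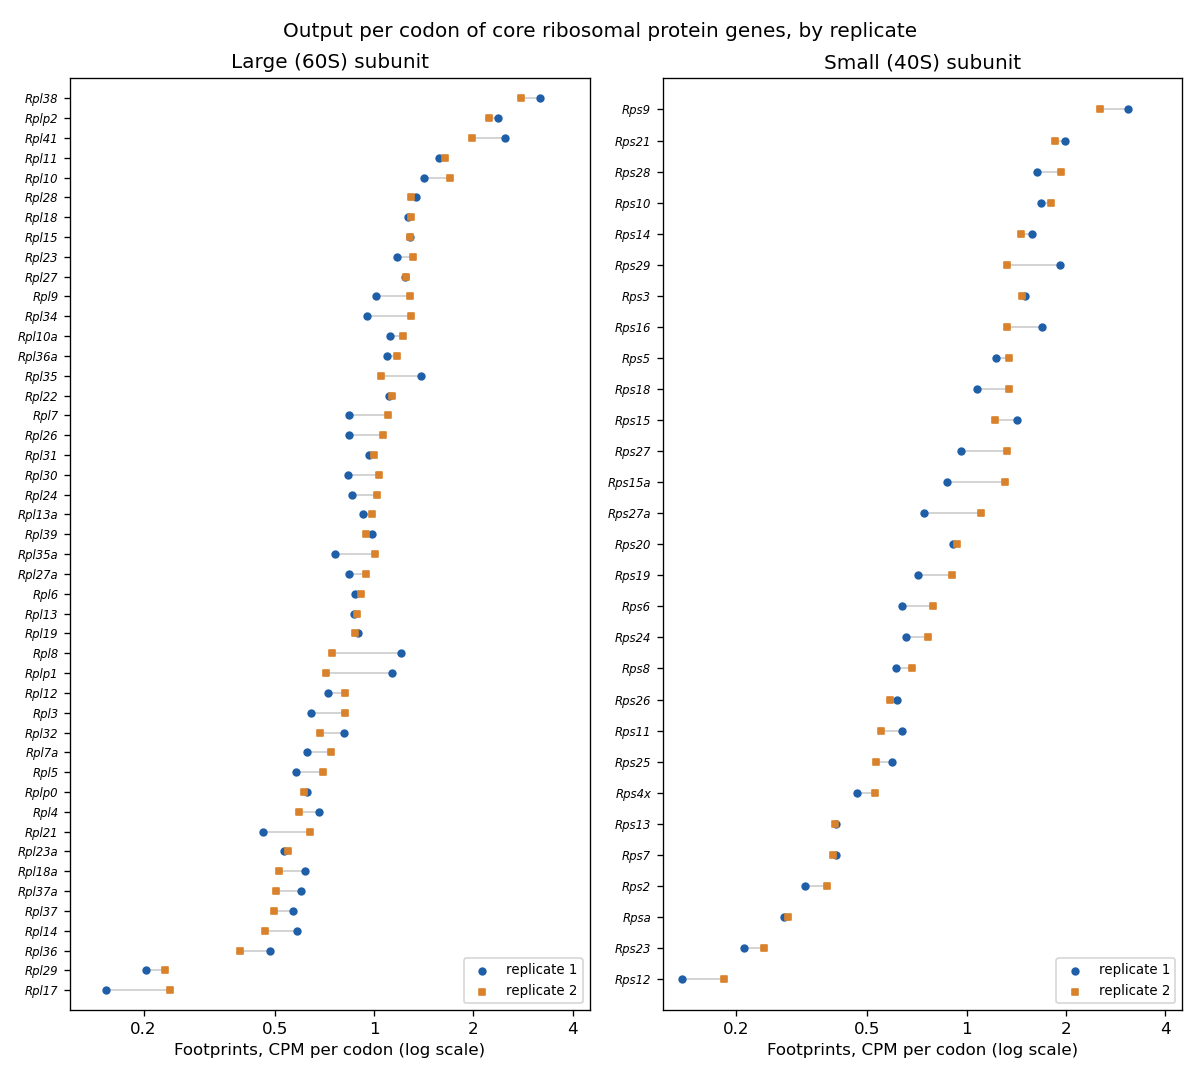
Output of each core ribosomal protein gene in CPM per codon (log axis), with 1 point for each replicate of 75 genes, large-subunit genes on the left and small-subunit genes on the right, each ordered by summed output. The order runs from Rpl17 to Rpl38 on the left and from Rps12 to Rps9 on the right, and the replicates of a gene lie close together, with a Pearson correlation of 0.95 between replicates over 76 genes.

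The order of the genes was much the same in both brains. Across the 76 core genes, log2 CPM per codon in the replicates gave a Pearson correlation of 0.95 and a Spearman correlation of 0.928. These are descriptions across genes that share coding length and annotation, and genes are not independent replicates. The log2 ratio between replicates had an SD of 0.28, against 0.84 for the spread between genes. The 8 highest genes of each replicate shared 6, and the 8 lowest shared 7.

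The highest output was that of Rpl38, a short protein of the large subunit with 71 codons. It had 423 and 1042 footprints in replicates 1 and 2, or 3.19 and 2.79 CPM per codon. Rps9, a small-subunit protein of 195 codons that binds early in assembly, followed with 1126 and 2605 footprints, or 3.09 and 2.54 CPM per codon. With all annotated transcripts summed and divided by the longest coding sequence, both libraries put these genes above every other core gene. This ranking was not repeated with only the highest transcript of each gene. Rpl41, the shortest protein of the ribosome, had 219 and 490 footprints and 15.1 footprints per codon over its longest annotated coding sequence of 47 codons. Over the 26 codons of its lowest-numbered transcript the same counts gave 27.3 per codon, so its place at the top depended on which coding length was used. Rplp2 and the small-subunit genes Rps21 (13.5), Rps28 (13.2) and Rps10 (12.6) were also among the 8 highest. This list too depended on the coding length used. Rpl13a had 6.92 per codon over its longest coding sequence. Over the 204 codons of its lowest-numbered coding transcript it had 14.4, above Rps21, Rps28 and Rps10. All 8 genes highest over the longest coding sequence had several annotated transcripts, as did 58 of the 76 core genes.

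The lowest output was that of Rps12, a small-subunit protein, with 34 and 129 footprints, or 0.137 and 0.184 CPM per codon. Rpl17, which lines part of the peptide exit tunnel, had 53 and 235 footprints (0.153 and 0.241 CPM per codon). Rpl29 had 61 and 197 footprints, and Rps23, a protein near the decoding centre, had 57 and 184. All of these genes lay below 2 footprints per codon. Their replicates did not overlap those of the high genes, but both sets were chosen by summed output, which largely fixed this. Rpsa, which is also known as the laminin receptor, gave 155 and 449 footprints over 296 codons, or 0.281 and 0.288 CPM per codon. Rps2, Rps7 and Rps13 completed the 8 lowest with 2.60, 2.82 and 2.85 footprints per codon. Of these 8 genes, 6 had a single annotated transcript, and 7 had at least 1 pseudogene named after them (the gene's symbol followed by -ps). Of all 76 core genes, 18 had a single annotated transcript and 20 had no named pseudogene, so most core genes had at least 1.

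The medians of large- and small-subunit genes lay close together. The median was 6.76 footprints per codon over 46 large-subunit genes and 6.91 over 30 small-subunit genes. The difference of the medians, large minus small, was -0.032 on the log2 scale, 0.11 in replicate 1 and -0.072 in replicate 2, so it was smaller than the difference between the replicates. The sign turned when transcript length or mean CPM was used, when paralogues were included and when genes under 100 codons were left out. Small-subunit genes spread more widely, with a log2 SD of 0.99 against 0.73.

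On the stalk of the large subunit, Rplp0 forms the base and Rplp1 and Rplp2 attach to it as dimers. Rplp0 had 371 and 1023 footprints, or 0.625 and 0.611 CPM per codon. Rplp1 had 244 and 434 footprints, or 1.14 and 0.717 CPM per codon. Rplp2 had 516 and 1359 footprints, or 2.38 and 2.23 CPM per codon. Both acidic proteins were thus above the base protein in each library. Rplp2 stood at 3.81 and 3.64 times Rplp0 in replicates 1 and 2. Rplp1 stood at 1.82 times Rplp0 in replicate 1 and 1.17 times in replicate 2. Rplp1 was annotated with 1 transcript and Rplp2 with 6.

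Some ribosomal proteins are made as fusions with ubiquitin or a ubiquitin-like protein, which is split off after synthesis. Rps27a, the member of this kind, had 218 and 913 footprints, or 0.744 and 1.11 CPM per codon, close to the family's median. Fau, a fusion of a ubiquitin-like protein with a small-subunit protein, had 480 and 1207 footprints and 12.6 per codon. Gnb2l1, the symbol in the files for the scaffold protein now called Rack1, had 835 and 2202 footprints and 9.55 per codon. Rps3a1 was low, with 154 and 483 footprints and 2.40 per codon.

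If each protein is made in equal number, a gene's footprint count rises in proportion to its coding length. Among the 76 core genes the count rose with length, with a Spearman correlation of 0.504 (0.472 in replicate 1 and 0.518 in replicate 2, n = 76 genes). The slope on log axes was 0.64, below the value of 1 that strict proportion gives. The correlation was 0.631 over the large subunit and 0.335 over the small subunit. Over all 13317 coding genes it was 0.0625, and over 77 mitochondrial ribosomal protein genes it was -0.041. Over the 14 genes of the proteasome core it was 0.442, and over 7 genes of the chaperonin CCT it was 0.857. Counts thus rose with length in those complexes as well, but their genes span only 202 to 278 and 536 to 557 codons. The slopes on log axes were 1.46 and 17.3. Over such narrow ranges of length, these correlations cannot show whether counts follow coding length in proportion.

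The 9 core genes under 100 codons had a median of 709 footprints and 10.6 per codon, and ranged from 3.67 to 20.6. The 26 genes of 100 to under 150 codons had 946.5 footprints and 7.11 per codon at the median. Above that, 19 genes of 150 to under 200 codons reached 1101 footprints and 6.28 per codon, and 22 genes of at least 200 codons reached 1505.5 footprints and 5.80 per codon. Short genes therefore had fewer footprints but more per codon, and the Spearman correlation of output per codon with length was -0.261, against -0.449 for all coding genes. Rps29, with 57 codons, had 205 and 397 footprints, or 1.93 and 1.32 CPM per codon, and Rps28, with 70, had 213 and 712, or 1.63 and 1.93. Rpl39, with 52 codons, was the lowest of the core genes under 75 codons, at 96 and 258 footprints and 6.81 per codon. These counts leave out its 1 named pseudogene, which held a further 86 and 230 footprints, 89.3% of the gene's own.

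**Figure D2:**
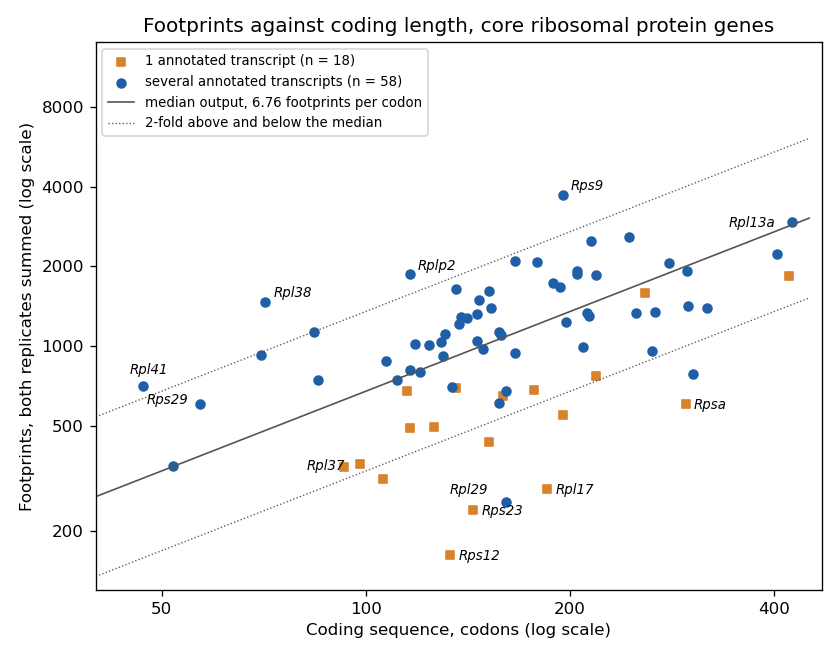
Footprints summed over both replicates against codons of the longest coding sequence (both axes log), with 1 point for each of the 76 core genes, squares for 18 genes with 1 annotated transcript and circles for 58 genes with several. The solid line marks the median of 6.76 footprints per codon and the dotted lines 2-fold above and below it, and 63 genes lie between the dotted lines.

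The proteasome core and CCT had a smaller SD than the cytosolic ribosome, and the mitochondrial ribosome a like one. The 14 subunits of the 20S proteasome core, each present in the same number per particle, had a median of 4.91 footprints per codon, a log2 SD of 0.44 and a range of 2.14 to 6.42. The 7 subunits of the chaperonin CCT found under the 8 listed symbols had a median of 4.35 and an SD of 0.38, and all 7 lay within 2-fold of the median. The mitochondrial ribosomal proteins had a lower median of 1.55 and an SD of 0.83, beside 0.84 in the cytosolic core. No test was made of the difference in spread, because genes are not replicates and the complexes differ in number and length of genes.

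Among other TOP mRNAs and the genes of ribosome assembly, output was more varied still. The elongation factor Eef1a1 had 25.9 footprints per codon, above every core gene, and Tpt1 (12.2), Eef1b2 (8.35) and Btf3 (8.20) lay within the upper part of the family's range. The 16 TOP genes of this list had a median of 4.07 and a log2 SD of 1.31. The lowest of them, Naca at 0.659, was divided by a longest coding sequence of 2188 codons, against a list median of 428.5. How much of this spread came from the choice of coding length was not tested. The 35 assembly factors, which build the subunits but leave before translation, had a median of 0.758 and an SD of 1.5. Nucleolin (Ncl, 5.62), Nop10 (4.71), Rrp1 (3.50) and Eif6 (3.32) were the highest of them, all under the core median.

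**Figure D3:**
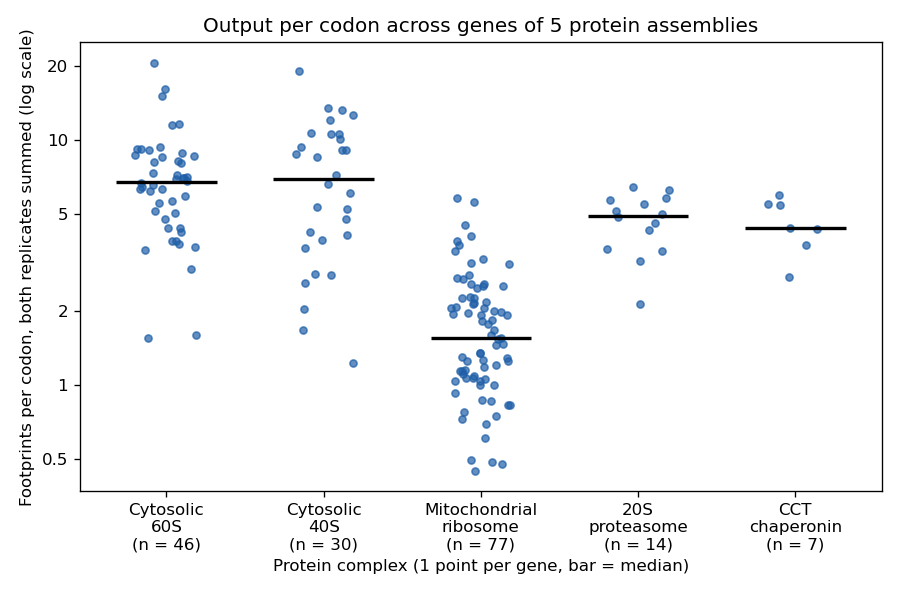
Output in summed footprints per codon (log axis) for the genes of each group, with 1 point per gene and a bar at each group's median. The core ribosomal proteins have medians of 6.76 (large subunit) and 6.91 (small subunit), above the proteasome core (4.91), CCT (4.35) and the mitochondrial ribosomal proteins (1.55).

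With all annotated transcripts summed, the paralogues were below their parent genes, and by very different amounts. Rpl36al, whose parent is Rpl36a, had 165 and 538 footprints, and its parent had 1.33 and 1.23 times as much per codon in replicates 1 and 2. The order of this pair depended on that sum. All footprints of Rpl36al lay on protein_coding transcripts, against 23.0% of those of Rpl36a. On those transcripts alone Rpl36al, which has the same coding length, was the higher. Rpl22l1 had 92 and 485 footprints and was exceeded by Rpl22 2.77 times in replicate 1 and 1.51 times in replicate 2. Rps27l, a gene induced by p53, had 52 and 295 footprints, and Rps27 stood 3.67 and 2.51 times higher. These 3 were the paralogues with the highest output, at 6.57, 4.69 and 3.27 footprints per codon.

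Rps4l had 83 and 189 footprints, with its parent Rps4x at 2.76 and 3.85 times its output. Rpl7l1, an assembly-linked relative of Rpl7, had 65 and 210 footprints, and Rpl7 was 5.94 and 6.81 times higher. Rpl39l, known for its high level in male germ cells, had 12 and 25 footprints, and Rpl39 was 8.0 and 10.3 times higher. Rpl3l, a gene of striated muscle, and Rpl10l, a gene of the testis, had no footprint in either library. Against a limit of 3 counts over both libraries, Rpl3 was at least 750-fold and Rpl10 at least 828-fold higher per codon. Skeletal muscle markers summed to 78.2 and 60.4 CPM in these libraries.

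**Figure D4:**
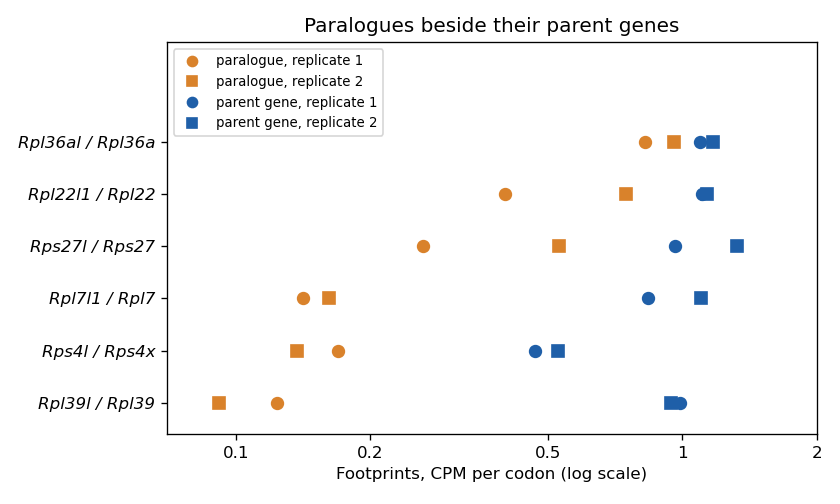
Output of each paralogue and its parent gene in CPM per codon (log axis), with 1 point for each replicate. With all annotated transcripts summed, parents lie above their paralogues in both replicates. The ratios run from 1.33 and 1.23 times for Rpl36a over Rpl36al to 8.0 and 10.3 times for Rpl39 over Rpl39l. Rpl3l and Rpl10l, which had no footprint, are not drawn.

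Where the fragments of these genes were assigned bears on each value above. Many ribosomal protein genes have processed pseudogenes, copies of the spliced mRNA put back into the genome, whose sequence a short fragment of the parent gene can match. The files listed 257 pseudogenes named after 58 of the members, as the member's symbol followed by -ps. Of these, 248 had footprints, 6895 in replicate 1 and 22375 in replicate 2. These were as many as 29.6% and 32.8% of the members' own counts. For 7 core genes (Rps12, Rpl17, Rps23, Rpsa, Rps13, Rpl36 and Rpl31) the named pseudogenes held more footprints than the gene. Copies named in other ways, such as Rpl37rt, Rps12l1 and Rps12l2, are left out of all pseudogene values here and are described further below.

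Rps12 had the most pseudogene footprints in proportion to its own, with 202 and 725 footprints on 21 named pseudogenes against 34 and 129 on the gene. Counting them with the gene moved Rps12 from 1.23 to 8.20 footprints per codon. Rpl17 went from 1.56 to 7.65 in the same way, Rpsa from 2.04 to 8.98 and Rps13 from 2.85 to 11.6. Rps7, without a named pseudogene, remained at 2.82, and Rpl29, with 3 of them, reached only 2.33 and became the lowest core gene. With named pseudogenes added for every gene, 68 of 76 core genes lay within 2-fold of a median of 8.96, the log2 SD was 0.64, and the Spearman correlation of count with length was 0.618. Whether those fragments came from the parent mRNAs was not tested.

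The number of pseudogenes went with output across the family as well. The 20 core genes with no pseudogene named with -ps, Rpl37 among them, had a median of 9.23 footprints per codon. The 30 with 1 to 3 had 6.68, and the 26 with 4 or more had 6.18. With the pseudogenes' footprints added, the medians of the latter groups were 7.85 and 9.19.

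The number of annotated transcripts moved with output too. The 18 core genes with 1 annotated transcript had a median of 3.72 footprints per codon (range 1.23 to 6.17), below the 7.67 of the 24 genes with 2 to 5 and the 8.13 of the 34 genes with 6 or more. The Spearman correlation was 0.579 over the core genes and 0.0899 over all coding genes, whose medians in the same classes were 0.417, 0.497 and 0.604. Both kinds of core gene had a log2 SD of 0.65 within their own class. What part of this came from the counting was not tested.

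Fragments of 1 gene were spread over its transcripts. Among core genes, 27 sets of coding transcripts of the same gene had the same coding length, and the highest count in a set exceeded the lowest by 1.08-fold at the median and by 1.27-fold at most. The 4 transcripts of Rpl38 in such a set had 97, 109, 113 and 104 footprints in replicate 1 and 274, 266, 242 and 260 in replicate 2. Of the core genes' footprints, 62.1% ± 1.45 (SD, n = 2) lay on protein_coding transcripts, against 80.2% ± 1.12 for all coding genes. Transcripts annotated as retained_intron held 23.9% ± 0.937, against 9.92% ± 0.420. The core genes had 174 protein_coding, 125 retained_intron, 54 processed_transcript and 10 nonsense_mediated_decay transcripts. Rpl12 had the smallest share on coding transcripts, at 16.9%, and Rpl7a (19.8%) and Rpl10a (20.2%) followed. Of the 7 annotated transcripts of Rpl12, only Rpl12-001 was protein_coding. How far these shares follow from the number of annotated transcripts of each kind was not tested.

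The replicates were compared by an exact binomial test of each gene's 2 counts, with library sizes scaled by TMM and Benjamini-Hochberg adjustment over 16427 genes. This test covers counting error and compares these libraries, not conditions. Of the 82 members tested, 23 differed at an adjusted p of 0.05, 7 higher and 16 lower in replicate 2. Over all genes 17.4% were called, 5.95% higher and 11.5% lower. Among genes that averaged at least 100 footprints, 28 of 80 members were called (35.0%), beside 34.0% of all such genes (11.2% higher and 22.8% lower), so the members' share was close to the background. Scaled to library totals instead, 29 members were called, 20 higher and 9 lower, and 16 of the 23 were among them. With that scaling the share over all genes was 19.0% (11.5% higher and 7.47% lower in replicate 2). The balance thus turned for all genes as well. The 2 scalings differed by 0.13 on the log2 scale, and no called member changed its direction between them. Of the other lists, 7 of the 16 TOP genes were called, 2 higher and 5 lower in replicate 2. Of the 35 assembly factors 8 were called, 3 higher and 5 lower, and the share over all genes was the same 17.4%. All 16 TOP genes averaged at least 100 footprints, so the 34.0% of genes at that level is the closer background for them.

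Among core genes the largest called differences were lower values in replicate 2. Rpl8, a large-subunit protein near the peptidyl transferase centre, had 582 and 1009 footprints, a log2 ratio of -0.83 (binomial adjusted p = 1.83e-24, exact test). Rplp1 followed at -0.79 (binomial adjusted p = 1.38e-09, exact test) and Rps29, a short zinc-binding protein of the small subunit, at -0.66. Rpl35 (-0.53) and Rps16 (-0.48) came next. Higher in replicate 2 were the paralogues Rps27l (0.87, the largest difference of any member) and Rpl22l1 (0.77), and the core genes Rps15a (0.45), Rps27a (0.44), Rpl34 (0.32), Rpl7 (0.27) and Rpl3 (0.22).

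Here too the annotation moved with the values. Of the 18 core genes with 1 transcript, 7 were called, all lower in replicate 2, and their median log2 ratio was -0.32. Of all coding genes with 1 transcript, 25.6% were called lower and 0.733% higher. The 34 core genes with 6 or more transcripts had a median of 0.076, and 4 were called lower and 4 higher, beside 4.57% and 15.3% of all coding genes of that class. All coding genes showed the same order, with medians of -0.28 for 1 transcript, -0.018 for 2 to 5 and 0.17 for 6 or more. When only the transcript with the highest count was used for each gene, 7 of the 23 members remained called (Rpl8, Rplp1, Rps29, Rpl14, Rpl4, Rps27a and Rps15a). Of the 82 members this was 8.54%, beside 9.41% of all genes with that setting (1.65% higher and 7.75% lower), so the members' share lay near the background there too.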

How the data were processed

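The authors deposited read counts per transcript for both libraries, with gene symbol, transcript biotype and lengths. Per the submitters' processing notes, Trimmomatic 0.36, Bowtie2 2.2.6, SAMtools and GRCm38.p4 were used. The counting tool, annotation release, use of strand and handling of fragments that match several places are not given in the sources used here. Counts were summed per gene (Python 3.11.15) and divided by the codons of the longest coding sequence. That length overstates genes with a long minor isoform: Rpl13a has 424 codons against 204 in its lowest-numbered coding transcript, and Rps19 has 213 against 146. Genes that averaged at least 10 footprints were tested between libraries by an exact binomial test with TMM factors from edgeR 4.0.16. A quasi-likelihood test was planned but could not be fitted with 1 group, and the binomial test was checked on simulated counts. Those counts held counting noise only, so the check cannot show how the test behaves with further spread between libraries. DESeq2 1.42.0 size factors were an alternative. Named genes were the 8 highest and 8 lowest core genes per codon, the stalk genes, core genes under 75 codons, every paralogue with its parent, the 5 called core genes with the highest and the lowest log2 ratio (prior 0.5 CPM), the 3 core genes with the most footprints outside coding transcripts, the ribosomal genes outside the rule and the 4 highest TOP and assembly genes. Members and lists were chosen with earlier results of these data known. P-values measure only counting spread between these libraries. No value column was left unmapped. Some genes that the rules name are not reported here.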

Additional observations from a re-analysis of the deposited data

Results flagged for a closer look

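Genes outside the rule that carry ribosomal protein names also had footprints, above the limit that a count of 0 allows. No control sample shows what level such copies reach without fragments of their parents, and no cause was tested. Over both libraries, Rpl37rt, a retrotransposed copy of Rpl37, had 879 footprints, against 104 and 256 on Rpl37 itself in replicates 1 and 2. Rps3a2 had 457 footprints and Rps3a3 had 374, beside 154 and 483 on Rps3a1. Rps27rt, annotated as protein_coding, had 120 footprints, Rps12l1 had 113 and Rps12l2 had 61. The last pair are named after Rps12, the core gene with the lowest output. Rps3a2, Rps3a3, Rps12l1 and Rps12l2 were annotated as processed_pseudogene, and the transcript Rpl37rt-001 as transcribed_processed_pseudogene. None of these copies was counted among the named pseudogenes above.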

How the results depend on the processing

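The log2 SD of core output, 0.84 as reported, was 0.98 over transcript length, 0.92 on protein_coding transcripts only, 0.77 on the highest transcript, 0.64 with named pseudogenes added, 0.96 with paralogues included and 0.65 without genes of 1 transcript, a setting chosen after seeing the data. With 1 replicate at a time it was 0.83 to 0.89. The Spearman correlation of count with length (0.504) was in the same order 0.354, 0.328, 0.402, 0.618, 0.466 and 0.560, it was 0.460 with ribosomal genes outside the rule added, and 0.472 to 0.518 with 1 replicate. The difference of the subunits' medians (-0.032) was -0.21 with the coding length of the lowest-numbered or of the highest coding transcript, -0.22 on the highest transcript and -0.35 without genes of 1 transcript. It turned positive over transcript length (0.12), with mean CPM (0.018), with paralogues included (0.048) and for genes of at least 100 codons (0.23), and was -0.072 to 0.11 with 1 replicate. The count of called members (23) was 7 on the highest transcript, against 9.41% of all genes. It was 0 by an edgeR exact test (4 with an unadjusted p under 0.05, and 11 calls over all genes). That test took its dispersion from these same 2 libraries, so it says nothing about how stable the calls are. No paired analysis was possible because there was only 1 group. Low genes limit precision: Rpl39l rests on 12 and 25 footprints.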
